A study of Mus musculus with 4 samples.

Results

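Chromatin at 421 regions was called open in 3 of the 4 macrophage libraries of this study and not in the 4th, the untreated library from mice that lack the creatine transporter Slc6a8. The members were found by merging the peaks of the 4 deposited lists wherever they shared at least 1 bp, which gave 20540 regions. A region was kept where the wild-type untreated, wild-type IL-4 and knockout IL-4 lists each held a peak and the knockout untreated list held none. Members were thus chosen by the peak calls themselves, so their absence from the knockout untreated list and their scores in the other 3 lists are descriptions and carry no test. Regions were ranked by the lowest percentile that their peaks took within the 3 lists, and rank 1 is the region whose weakest peak stood highest.

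The cells were bone marrow-derived macrophages of the C57BL/6 background, grown for 5 days with 10% M-CSF, and each library was made from 50000 cells. The wild-type pair was left untreated (WT untreated) or given IL-4 at 10 ng/mL for 6 h (WT IL-4), and the Slc6a8-/y pair was treated in the same ways (KO untreated and KO IL-4). There was 1 library in each of the 4 groups, the number of animals behind a library is not stated, and the genotype label limits the loss of Slc6a8 to no cell type. The submitters set out to follow chromatin accessibility during polarization when creatine is short.

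ATAC-seq uses the Tn5 transposase, which inserts sequencing adapters where DNA is not covered by nucleosomes, so a peak marks a promoter, enhancer or other open site. Slc6a8 imports creatine, which buffers ATP through the creatine kinases, and Gatm and Gamt are the enzymes with which a cell can make creatine itself. IL-4 acts through its receptor, JAK kinases and the factor Stat6, and drives macrophages to the alternatively activated state marked by arginase 1, the product of Arg1.

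The KO untreated list was not the shortest. It held 13714 peaks against 17339 in WT untreated, 10443 in KO IL-4 and 9930 in WT IL-4, and the lowest score in every list lay at 50 or just above it. With read depth unstated in the sources used here, a region without a peak is one not called at that score and was not shown to be closed. Of 52 macrophage genes (lineage transcription factors, surface receptors and complement), 49 had a peak within 10 kb in the WT untreated library and 40 after IL-4, and the KO libraries had such a peak at 40 untreated and 34 after IL-4. The same count over 68 marker genes of fibroblasts, granulocytes, dendritic cells, lymphocytes and the erythroid line was 25, 17, 19 and 17. Of these 68 genes, 13 had a region of WT untreated, WT IL-4 and KO IL-4 at the locus and none had a member, beside 5.65% of all genes with such a region, so the absence is near the background. In bulk chromatin, fewer cells of a type and a lower accessibility per cell cannot be told apart. Slc6a8 itself had no peak at its locus in any library, so the lists do not check the genotype.

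Promoter sequences are shown for the 6 highest-ranked members that lie at the end of a gene with a RefSeq promoter in the table used, and for Fos and Gatm, whose start sites are described further on. Each run is the 300 bases from 250 before to 50 after the transcription start (RefSeq, GRCm38.p6, the mm10 build), read 5′ to 3′ on the gene's strand. Capitals mark matches to 13 searched motifs.
Alg1 (chr16:5233371-5233670, plus strand): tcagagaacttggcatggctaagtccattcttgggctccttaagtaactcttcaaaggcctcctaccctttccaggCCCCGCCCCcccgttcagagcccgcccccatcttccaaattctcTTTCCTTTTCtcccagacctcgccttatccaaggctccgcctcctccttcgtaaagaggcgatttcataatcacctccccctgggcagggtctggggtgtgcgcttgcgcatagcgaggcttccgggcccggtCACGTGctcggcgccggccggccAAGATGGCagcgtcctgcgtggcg
Alg8 (chr7:97371367-97371666, plus strand): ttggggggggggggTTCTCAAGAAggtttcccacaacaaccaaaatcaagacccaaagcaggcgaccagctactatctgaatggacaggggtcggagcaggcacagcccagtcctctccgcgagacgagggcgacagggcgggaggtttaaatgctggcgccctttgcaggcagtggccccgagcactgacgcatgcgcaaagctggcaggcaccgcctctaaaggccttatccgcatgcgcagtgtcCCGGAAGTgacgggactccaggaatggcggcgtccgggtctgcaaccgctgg
Ebpl (chr14:61360396-61360695, minus strand): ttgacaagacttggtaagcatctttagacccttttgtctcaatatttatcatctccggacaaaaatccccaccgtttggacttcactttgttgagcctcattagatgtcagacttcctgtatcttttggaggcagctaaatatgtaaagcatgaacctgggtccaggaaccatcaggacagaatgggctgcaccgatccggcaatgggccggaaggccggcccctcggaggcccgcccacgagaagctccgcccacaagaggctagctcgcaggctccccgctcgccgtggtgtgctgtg
Bbs5 (chr2:69646921-69647220, plus strand): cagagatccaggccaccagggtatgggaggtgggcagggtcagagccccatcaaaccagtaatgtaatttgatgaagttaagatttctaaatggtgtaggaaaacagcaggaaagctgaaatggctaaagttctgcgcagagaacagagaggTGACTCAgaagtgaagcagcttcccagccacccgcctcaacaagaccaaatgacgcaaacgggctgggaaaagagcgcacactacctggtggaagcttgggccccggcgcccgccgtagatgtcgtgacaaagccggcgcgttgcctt
Tmem11 (chr11:60878989-60879288, minus strand): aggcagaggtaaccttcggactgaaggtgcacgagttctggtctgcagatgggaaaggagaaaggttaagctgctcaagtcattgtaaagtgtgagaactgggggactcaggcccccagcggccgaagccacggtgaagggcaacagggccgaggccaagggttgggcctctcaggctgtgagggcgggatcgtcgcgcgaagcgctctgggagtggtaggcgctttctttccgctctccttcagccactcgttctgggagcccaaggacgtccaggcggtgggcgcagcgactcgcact
Ubtd2 (chr11:32455120-32455419, plus strand): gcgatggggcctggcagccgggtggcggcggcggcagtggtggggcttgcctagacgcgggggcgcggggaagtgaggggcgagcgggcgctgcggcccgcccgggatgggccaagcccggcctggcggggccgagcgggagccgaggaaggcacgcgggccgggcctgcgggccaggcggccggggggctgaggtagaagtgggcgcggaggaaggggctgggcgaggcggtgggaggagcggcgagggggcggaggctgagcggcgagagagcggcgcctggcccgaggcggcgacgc
Fos (chr12:85473640-85473939, plus strand): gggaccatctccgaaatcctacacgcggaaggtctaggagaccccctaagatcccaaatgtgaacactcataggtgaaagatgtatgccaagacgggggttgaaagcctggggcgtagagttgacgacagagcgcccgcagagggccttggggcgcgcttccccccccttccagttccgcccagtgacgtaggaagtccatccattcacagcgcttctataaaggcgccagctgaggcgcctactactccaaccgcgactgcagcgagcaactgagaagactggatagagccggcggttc
Gatm (chr2:122611228-122611527, minus strand): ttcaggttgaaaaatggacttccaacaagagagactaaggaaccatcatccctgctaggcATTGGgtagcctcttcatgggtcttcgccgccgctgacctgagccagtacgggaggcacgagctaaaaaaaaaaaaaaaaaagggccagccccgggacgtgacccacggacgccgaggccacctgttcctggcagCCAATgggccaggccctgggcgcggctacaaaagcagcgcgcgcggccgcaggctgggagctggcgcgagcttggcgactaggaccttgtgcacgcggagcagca

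The member region covered all 300 bases of each of these windows except that of Tmem11, of which it covered 216. Counting from 1 at the 5′ end, the Alg1 window held an SP/KLF box at 77 to 85, an IRF motif at 121 to 130, the E-box CACGTG at 254 to 259 and the YY1 motif AAGATGGC at 277 to 284. The Alg8 window held a STAT6 motif at 15 to 24 and the ETS motif CCGGAAGT at 249 to 256, which spans the start site. Bbs5 held an AP-1 motif at 153 to 159, and Gatm held the NFY box CCAAT at 196 to 200 and its reverse at 61 to 65. No match was found in the Ebpl, Tmem11, Ubtd2 and Fos windows, which says only that those letters are not in these 300 bases. The 8 promoters therefore share no searched motif.

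Among regions with a peak in the other 3 libraries, 421 of 7093 (5.94%) lacked one in KO untreated. The same absence concerned 90 of 6762 regions (1.33%) for WT untreated, 1487 of 8159 (18.2%) for WT IL-4 and 1235 of 7907 (15.6%) for KO IL-4. Of the 3233 regions found in exactly 3 libraries, 13.0% were missing from KO untreated (95% Clopper-Pearson interval 11.9 to 14.2), between the 2.78% missing from WT untreated and the 38.2% missing from KO IL-4. The order of the 4 shares is the reverse of the order of the list lengths. The KO untreated share was 22.7% (21.0 to 24.5) when every list was cut to its 9930 highest scores, and 5.93% when only scores of 100 or more were read. Each of these settings changes the lengths of the lists and their lowest scores together, so the parts of length and threshold cannot be told apart. The set itself moved with them, to 528 regions of which 211 were members, and to 91 of which 5 were members.

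The members were weak peaks where they were present. Their median score was 92.4 in WT untreated (range 50.1 to 245), 65.7 in WT IL-4 (50.0 to 190.1) and 68.9 in KO IL-4 (50.0 to 201). As percentiles of their own lists these medians stood at 44.7, 28.6 and 31.8, against 79.8, 65.1 and 66.4 for the 6672 regions found in all 4 libraries. A score of 100 or more was reached by 179 of the 421 members in WT untreated, by 36 in WT IL-4 and by 53 in KO IL-4, and by 5 members in all 3 lists.

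Absence from KO untreated fell with the strength of the region in the other 3 lists. Where the lowest of the 3 percentiles was between 0 and 10, 22.6% of regions lacked a KO untreated peak (19.6 to 25.9). That share was 10.1% between 20 and 30 and 2.96% between 50 and 60, and no region above 70 was missing. Split at the middle, 397 of 3469 regions at or below the 50th percentile were missing (11.4%), against 24 of 3624 above it (0.662%). The rank rule reads the same percentiles, so this is a description of where the members lie.

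**Figure D1:**
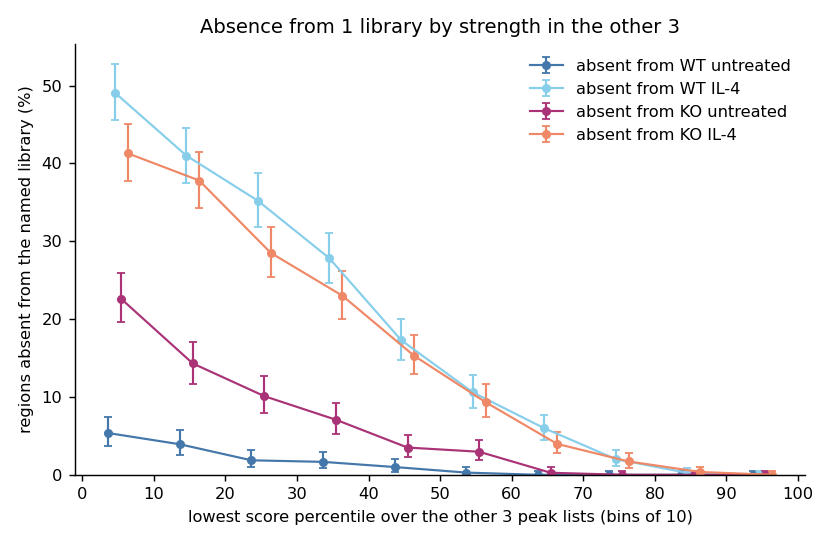
Share of regions with a peak in the other 3 libraries that lack one in the named library (y axis, %), by the lowest score percentile over those other 3 lists (x axis, bins of 10); bars are 95% Clopper-Pearson intervals. The KO untreated line falls from 22.6% in the weakest bin to 0 above the 70th percentile, between the WT untreated line below it and the IL-4 lines above it.

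Many members were close to the calling threshold on the side where they were called. At least 1 of the 3 scores was under 55 in 148 members and under 60 in 239. On the other side, 107 regions found in all 4 libraries had a KO untreated score under 55 and 240 had one under 60. Regions just outside the set, kept out by a KO untreated peak of lowest score, lay at Aldh18a1 (KO untreated score 50.03), Lyn (50.15), Akap13 (50.16) and the Prr3 and Gnl1 genes (50.19). Lyn encodes a Src-family kinase of myeloid cells, and its region scored 176.6 in WT untreated, 107.5 in WT IL-4 and 63.6 in KO IL-4. The lowest-ranked members inside the set were at H60b (123.8, 50.02 and 55.65 in WT untreated, WT IL-4 and KO IL-4), Cyria (65.41, 59.76 and 50.04) and Pkd1l2 (100.7, 50.09 and 63.32).

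The highest-ranked region was the promoter of Alg1 (chr16:5233371-5234119), the mannosyltransferase that adds the first mannose to the lipid-linked precursor of N-glycans. Its scores were 147 in WT untreated, 139.8 in WT IL-4 and 197 in KO IL-4, the last at the 90.1 percentile of its list, and the nearest KO untreated peak lay 20112 bp away. Rank 2 fell where the ends of Stk19 and Dxo meet on chromosome 17 (157, 102 and 131). Dxo removes incomplete caps from messenger RNA, and neither gene had any KO untreated peak within 10 kb. A second enzyme of the same glycan pathway, the glucosyltransferase Alg8, was at rank 9 with scores of 133, 92.7 and 126 at its start site.

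Promoters of 4 other genes stood in the top 25 with no KO untreated peak at the locus. Ebpl, a relative of the sterol isomerase Ebp, scored 111, 156 and 123 in WT untreated, WT IL-4 and KO IL-4. Bbs5 encodes a subunit of the BBSome, the complex that carries membrane proteins to the primary cilium, and scored 125, 93.2 and 90.9. Tmem11, a protein of the mitochondrial inner membrane that shapes cristae, scored 107, 115 and 117. Ubtd2, a ubiquitin-like domain protein, scored 126, 130.2 and 86.6. As percentiles of their own lists, WT IL-4 was highest of the 3 at Ebpl, Ubtd2 and Tmem11 and WT untreated at Bbs5.

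Other regions of the top 25 lay away from gene ends. Rank 3 was inside Irf2, an interferon regulatory factor that competes with Irf1, 38331 bp from the gene's nearer end (chr8:46778076-46778647). It scored 156 in WT untreated, 100.4 in WT IL-4 and 99.8 in KO IL-4. A second member inside Irf2 (chr8:46789263-46790061), at rank 102, scored 121, 86.1 and 67.3. Both lie between an Irf2 start peak found in all 4 libraries (166, 61.5, 112 in KO untreated and 66.2) and a weak KO untreated peak of 52.6 that is 2565 bp from the second member. Irf2 was one of 6 genes with 2 or more members at the locus, together with Rabgap1l, Mtif2, Tcof1, Mknk1 and Plekho2.

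Mknk1, the kinase that phosphorylates the translation factor eIF4E downstream of MAP kinases, held rank 4 in its span with scores of 128, 102 and 98.5. Slc38a9, the lysosomal amino acid transporter that signals arginine to mTORC1, held rank 6 at an annotated start inside its span (128, 94.9 and 98.0). Ets1, a founding ETS factor, held rank 20 (105, 95.7 and 119), while a stronger site in the same gene, whose KO untreated peak scored 232 and lay 13214 bp away, was found in all 4 libraries. Map3k8, the kinase Tpl2 that passes Toll-like receptor signals to ERK, had the strongest WT untreated peak of the top 25 at its gene end on chromosome 18 (231, with 85.9 in WT IL-4 and 106 in KO IL-4). The other members of the top 25 lay inside Man1a, Tnfaip8, Scaf8, Ostf1 and Slc24a3, at an end of Grpel2 or Zfp930, or outside genes. Those outside genes were nearest to Helz2 (1721 bp), Saa4 (2192 bp), Mmp12 (13461 bp), Ccnl1 (22893 bp), Epb41l4a (128647 bp) and Zfp386 (735219 bp). At the longer distances the nearest gene only labels the position.

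**Figure D2:**
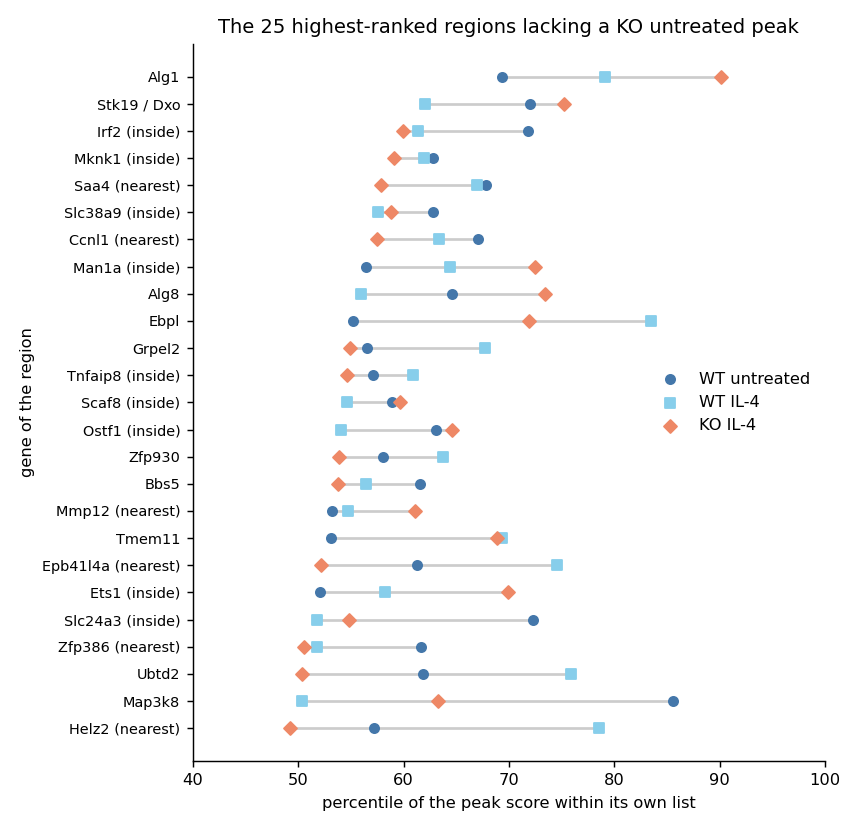
Percentile of the peak score within its own list (x axis) in WT untreated, WT IL-4 and KO IL-4 for the 25 highest-ranked regions without a KO untreated peak (y axis, named by gene end, holding gene or nearest gene). Alg1 reaches the 90.1 percentile in KO IL-4, and the lowest of the 3 points falls from 69.3 at Alg1 to 49.2 at rank 25.

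By position the members divided evenly among gene ends, gene bodies and the space between genes. A gene end lay within 1 kb of 140 members (33.3%, 28.8 to 38.0), 144 were further inside a gene (34.2%) and 137 were between genes (32.5%). Of the regions in all 4 libraries, 63.4% were at a gene end (62.3 to 64.6). The share was 45.3% for regions missing only from WT IL-4 (42.8 to 47.9), 43.4% for those missing only from KO IL-4 (40.6 to 46.2) and 32.2% for the 90 missing only from WT untreated (22.8 to 42.9). The interval of the members thus overlapped that of the other untreated library and lay below those of the IL-4 libraries. These intervals cover counting error over regions of single libraries only, not the spread between animals.

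Since position varies with peak strength, the comparison was repeated within bands of the lowest percentile. Between 0 and 10, 31.8% of members (24.6 to 39.7) and 46.7% of regions in all 4 libraries (42.5 to 51.1) were at a gene end. Between 10 and 30 the shares were 32.1% and 51.1%, and between 30 and 70 they were 37.4% and 61.0%. In each band the members' share was the lower. Read at scores of 100 or more only, 51.6% of the 91 regions were at a gene end. An annotated transcription start lay within 1 kb of 132 of the 404 members outside chromosome 18 (32.7%), and 29 of those 132 regions held starts of at least 2 genes.

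**Figure D3:**
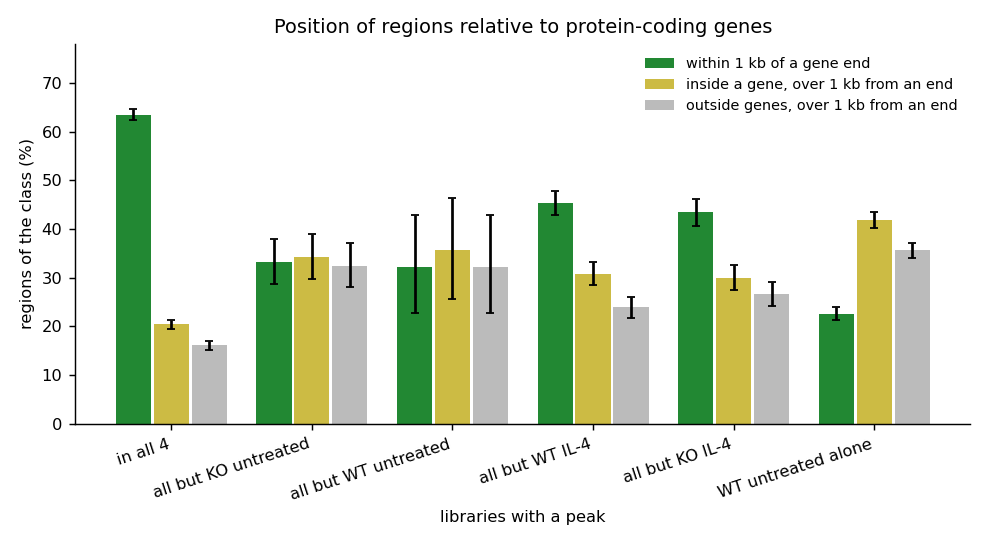
Share of regions (y axis, %) within 1 kb of a protein-coding gene's end, further inside a gene, or outside genes, for each class of libraries with a peak (x axis); bars are 95% Clopper-Pearson intervals. Regions in all but KO untreated divide almost evenly (33.3, 34.2 and 32.5%), while 63.4% of regions in all 4 libraries are at a gene end.

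The median distance from a member to the nearest KO untreated peak was 23762 bp (13 to 2478104). It was 500 bp or less for 14 members, 1 kb or less for 26 and 10 kb or less for 116 (27.6%). Regions missing only from WT IL-4 and only from KO IL-4 had medians of 33551 and 33031 bp to peaks of their own missing list. Of them, 20.3% and 20.0% lay within 10 kb. Those missing only from WT untreated had 18380 bp and 34.4%. The medians rose as the missing list grew shorter (17339 peaks in WT untreated, 13714 in KO untreated, 10443 in KO IL-4 and 9930 in WT IL-4). They were not adjusted for list length. A region called in KO untreated alone lay within 1 kb of 4 members and within 10 kb of 17. Members lay on every autosome and both sex chromosomes, and whether they gather in blocks was not tested. Another member lay within 10 kb of 6. The share of 3-library regions that lacked KO untreated ran from 3.60% on chromosome 9 to 8.54% on chromosome 12, with 5 of 116 (4.31%) on the X chromosome.

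At the level of genes, 440 of 21887 protein-coding genes (2.01%) had a member in the span extended by 10 kb, which is 5.65% of the 7791 genes with a region of the other 3 libraries there. Of these 440 genes, 152 (34.5%) had no KO untreated peak at the locus at all, and 115 had exactly 1 peak in each of the other libraries and none in KO untreated. Over all 21887 genes, 11295 had a KO untreated peak at the locus and 12257 a WT untreated peak. Those genes include loci without a peak in any library, so they are no like background for the 440. Among the 7791 genes, one without a member had a region shared by every library, and so a KO untreated peak there. A lack of KO untreated peaks could therefore arise only among the 440. A member touched a gene end in 174 genes (0.795% of all, and 3.35% of the 5196 with such a region at an end), and 86 of those had no KO untreated peak at the locus. For 105 genes whose member lay inside the span away from the start, the start site was open in KO untreated in 53 (50.5%) and had no peak in any library in 42.

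The enzymes of creatine and arginine metabolism had 1 gene with a member among 6 with a region of the other 3 libraries, beside 5.65% of all such genes. By region it was 1 of 8 (12.5%, 0.316 to 52.7), an interval that holds the 5.94% of all regions. That gene was Gatm, which carries out the first step of creatine synthesis, and the region was its start site (chr2:122611055-122611544). Its scores were 119 in WT untreated, 92.8 in WT IL-4 and 59.2 in KO IL-4, the last at the 18.1 percentile of its list. This was the only peak at the Gatm locus, and the nearest KO untreated peak was 18918 bp away. The next enzyme, Gamt, had a region in all 4 libraries and a highest KO untreated score of 177. Arg1 was no member: it had a KO untreated peak in both of its regions, with scores of 67.2 and 59.8.

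Among 24 immediate early and AP-1 genes, 13 had such a region and 2 had a member, Fos and Egr2. By region it was 2 of 18 (11.1%, 1.38 to 34.7), an interval that holds the 5.94% of all regions. Fos, the AP-1 subunit that is induced within minutes of stimulation, had its start site open at 124 in WT untreated, 80.6 in WT IL-4 and 84.7 in KO IL-4 (chr12:85473415-85474163, rank 32). The locus was not silent in KO untreated: a peak of 60.9 lay 840 bp upstream of the member, and a downstream site was found in all 4 libraries at 164, 60.6, 134 in KO untreated and 65.1. Egr2, a zinc finger factor that IL-4 also induces, had a member at an internal start (70.6, 93.4 and 80.4) and, downstream, a region in all 4 libraries with a KO untreated score of 70.2. Egr2 was the sole member gene of the IL-4 response list, in which 8 of 31 genes had a region of the other 3 libraries.

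**Figure D4:**
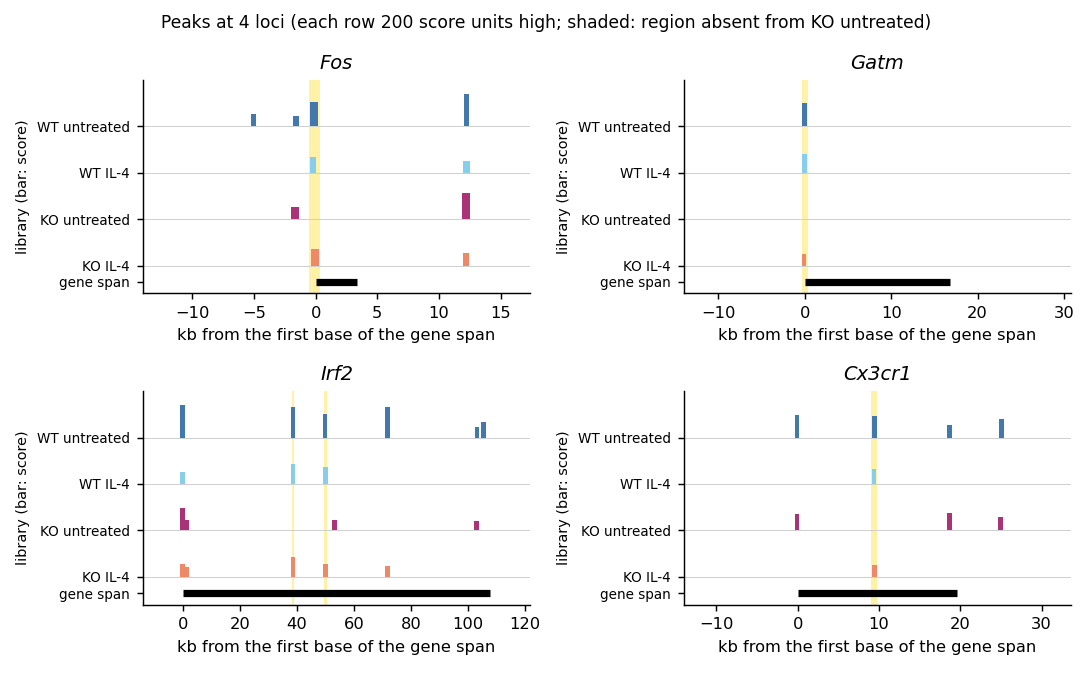
Peaks of the 4 libraries at Fos, Gatm, Irf2 and Cx3cr1, drawn as bars whose height is the score (200 units per library track), against the distance in kb from the first base of the gene span (x axis); the black bar is the gene and the shading marks the members. At Gatm the KO untreated track is empty, while at Fos, Irf2 and Cx3cr1 it holds peaks outside the shaded regions.

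Of the 52 genes in the macrophage lists, 9 had a member. Of 24 lineage transcription factors, 14 had a region of the other 3 libraries and 4 of those had a member: Cebpd, Bach1, Irf5 and Runx1. Cebpd, a C/EBP factor of the inflammatory response, had it at the gene end (107, 72.8 and 88.2, rank 61). Irf5, which drives inflammatory cytokine genes, had it inside the gene (61.5, 63.3 and 91.5), as had Runx1 (58.5, 52.3 and 69.8), and the haem-regulated repressor Bach1 had it 9276 bp outside (62.5, 86.3 and 106). Spi1 and Cebpb, which encode PU.1 and C/EBP-beta, were no members, and Cebpb had a single peak, in WT untreated.

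Of 28 surface and complement genes, 18 had such a region and 5 had a member. Cx3cr1, the fractalkine receptor, had it inside the gene (107, 74.0 and 62.1), and its other 3 regions were each found in both untreated libraries and in neither IL-4 library. The member was thus the one Cx3cr1 site called after IL-4. The scavenger receptors Cd36 (122, 73.0 and 61.7) and Msr1 (132, 85.1 and 50.3) had it inside the gene, and Msr1 had no KO untreated peak at all. Adgre1, which encodes the macrophage antigen F4/80, had a single region within 10 kb, at the gene end, with scores of 57.7, 85.8 and 68.5. Another member nearest to Adgre1 lay 11096 bp from it, outside that limit, with scores of 129, 76.8 and 58.8. Fcgr1, the high-affinity Fc receptor, had it 6705 bp from the gene (72.3, 58.9 and 64.8).

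Both lists together gave 9 of 32 genes (28.1%) with a member where all genes gave 5.65%. By gene, the macrophage share also stood above that of all genes for regions missing only from WT IL-4 (7 of 27, 25.9% against 20.0%) and only from KO IL-4 (7 of 31, 22.6% against 16.9%), and it was 0 of 26 against 1.33% for WT untreated. By region, members made up 9 of 42 regions at the macrophage loci (21.4%, 10.3 to 36.8) where all regions gave 5.94%. For regions missing from WT IL-4 the macrophage loci gave 5 of 38 (13.2%, 4.41 to 28.1) against 18.2%, for KO IL-4 7 of 40 (17.5%, 7.34 to 32.8) against 15.6%, and for WT untreated 0 of 33 against 1.33%. When each list was cut to its 9930 highest scores, 3 of the 9 genes (Cebpd, Cx3cr1 and Cd36) kept a member, and 5 of 28 macrophage genes had one (17.9%, 6.06 to 36.9) where all genes gave 8.19%. The genes and the lists were chosen with earlier results of these data known, so the counts describe these libraries.

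Among receptors and signalling, no member lay at any of 15 genes of the IL-4 receptor, JAK and STAT pathway that had a region of the other 3 libraries, Stat6 included, or at any of 11 Toll-like, NOD-like and C-type lectin receptor genes. Of all genes with such a region, 5.65% had a member. By region these lists gave 0 of 20 (0 to 16.8%) and 0 of 13 (0 to 24.7%). Both intervals hold the 5.94% of all regions, so the absence is near the background. The NF-kB and inflammatory list had 1 of 17, Map3k8, and the interferon list 1 of 13, Irf2. Nuclear receptors and lipid handling had 2 of 14. One was Nr4a2, an orphan receptor of the immediate early kind, at its start site (119, 65.2 and 89.1). The other was Nr1h3, the oxysterol receptor LXR-alpha, whose region (83.5, 65.8 and 51.3) also covers the start of Acp2 and so cannot be assigned to one of the genes.

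Genes of basic cell functions had shares nearer to the background. Lysosome and autophagy genes had 2 of 23. Lamp2, a major lysosomal membrane protein, had it at its start (85.7, 65.2 and 79.8). Ctsh, a cysteine protease, had it at one of the ends of its span (147, 65.1 and 53.2). No start site of Ctsh was in the promoter set used, so that end was not identified as start or finish. Glycolysis had 1 of 18, Ldha, at an internal start (percentiles 46.5, 64.1 and 35.8).

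Respiratory chain and ATP synthase subunits had 4 of 59, among them Ndufs4, Ndufa13 and Atp5o at the gene end. Ndufs4 and Ndufa13 belong to complex I, and Atp5o to the stalk of the ATP synthase. In WT untreated, WT IL-4 and KO IL-4, Ndufs4 scored 62.8, 59.5 and 58.6, Atp5o 52.7, 80.1 and 58.3, and Ndufa13, whose region also touches Tssk6, 139, 68.3 and 59.2. Mitochondrial ribosomal proteins had 3 of 39, with Mrpl10 (89.6, 76.0 and 64.6, shared with Lrrc46) and Mrps31 (59.1, 63.9 and 54.3) at the gene end and Mrpl48 inside. Of these 6 genes, Ndufs4, Atp5o, Mrpl10 and Mrps31 had no KO untreated peak at the locus.

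Rab GTPases, which steer vesicle traffic, had 3 of 41, with Rab2a at the gene end (96.4, 89.0 and 64.2) and Rab31 and Rab7b inside. Solute carriers had 12 of 141, with Slc16a10 (121, 99.7 and 63.1), Slc38a2 (119.9, 55.8 and 90.5) and Slc30a4 (84.9, 50.8 and 62.2) at the gene end. The first 2 carry amino acids and the other zinc. Slc38a9, Slc24a3, Slc43a2, Slc45a4 and Slc2a9 were the highest-ranked of the remaining carriers. Zfp zinc finger genes had 7 of 189, with Zfp212, Zfp493, Zfp606, Zfp930 and Zfp966 at the gene end, where WT untreated scores ran from 66.0 to 152, and Zfp473 and Zfp800 inside. Ubiquitin ligases and proteases had 7 of 112, with the conjugating enzymes Ube2d1 (110.2, 59.9 and 63.3) and Ube2j1 (99.9, 59.5 and 66.4) and the F-box gene Fbxl20 (124, 65.5 and 52.8) at the gene end, and Trim27, Ube2cbp, Ube2u and Fbxl18 besides.

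Several list genes were counted through a region at the start of a neighbour, so the region cannot be assigned to one gene. Housekeeping genes had 2 of 20. One was Ywhaz, with a site inside the gene, and the other was Actb, whose region is the start of Fbxl18. Cytosolic ribosomal proteins had 3 of 50, and the regions of Rpl24, Rpl38 and Rps10 lay at the starts of Zbtb11, Ttyh2 and Nudt3. Translation initiation factors had 3 of 34, of which Eif3b had the region inside the gene, while those of Eif2b5 and Eif4a1 lay at the starts of Dvl3 and Senp3. The region counted for Ube2cbp was the start of Dop1a, and the region of the helicase Ddx4, 1 of 28 in its list, was that of Slc38a9. Proteasome subunits had 1 of 24, Psma6, inside the gene.

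Other lists had none. These were 33 chromatin remodelers and modifiers, 22 cell cycle genes, 24 tRNA synthetases and 6 MHC class II genes with a region of the other 3 libraries. By region, the chromatin list, the longest of these, gave 0 of 47 (0 to 7.55%). That interval holds the 5.94% of all regions, as do those of the shorter lists, so the absence is near the background. In all, 66 of 2112 genes in 36 lists had a member at the locus, 26 of them at a gene end.

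**Figure D5:**
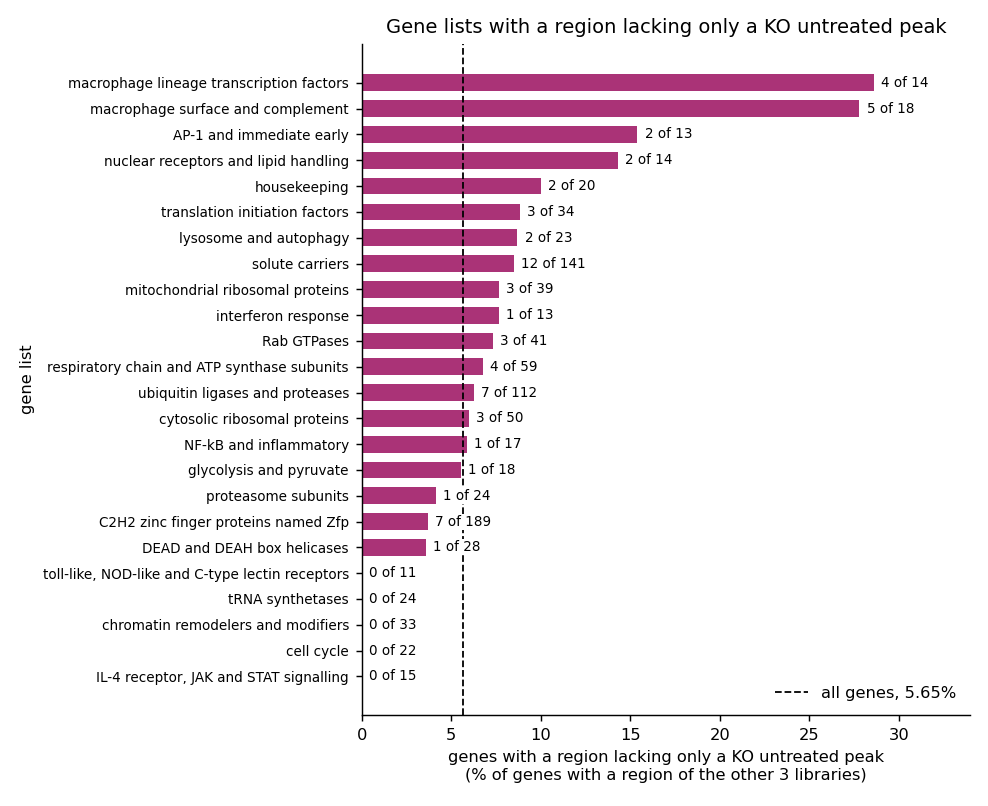
Share of genes with a member among genes with a region of the other 3 libraries (x axis, %) for lists with over 10 such genes (y axis), with the counts beside the bars; the dashed line is the 5.65% of all genes. The macrophage transcription factor and surface lists stand at 28.6 and 27.8%, and 5 lists stand at 0.

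Member regions at further gene ends, chosen here after their values were seen and tested for no theme, included more steps of glycan metabolism. None of the 4 glycan genes that follow kept its member when every list was cut to 9930 peaks. Alg3, another mannosyltransferase of the lipid-linked precursor, scored 88.4, 107 and 91.1 in WT untreated, WT IL-4 and KO IL-4, and had no KO untreated peak at the locus. Ngly1, which strips glycans from misfolded proteins, scored 87.3, 141 and 113. Gnptab, which starts the mannose 6-phosphate tag of lysosomal enzymes, scored 60.9, 60.6 and 71.2, and Cmas, which activates sialic acid, 74.7, 56.9 and 96.8. Mitochondrial genes among them were Mfn2, which fuses outer membranes (136, 75.7 and 104), Micos10 of the cristae junction complex (133, 84.8 and 75.1), Uqcc2, an assembly factor of complex III (102, 81.4 and 75.0), and Rhot1, which ties mitochondria to motors (80.5, 53.6 and 60.9). Micos10, Uqcc2 and Rhot1 had no KO untreated peak at the locus. Regulators of cytokine signalling were Zc3h12a, a ribonuclease of inflammatory transcripts (119.5, 60.3 and 109), Pias3, an inhibitor of Stat3 (109, 80.1 and 75.6), and Smad1, a factor of the BMP pathway (55.3, 83.1 and 58.2).

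The promoters overlapped by members had the base composition of other open promoters. Members overlapped 154 of 32851 RefSeq promoter windows of 300 bp (0.469%). Their median GC content was 62.3% and 85.7% had an observed over expected CpG ratio of 0.6 or more, against 62.7% and 85.6% for the 5329 windows of regions in all 4 libraries and 52.7% and 35.8% for all windows. Members at promoters were thus mostly of the CpG-rich kind, as shared open promoters were.

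Searched on both strands, with N for any base and overlaps between motifs allowed, the AP-1 motif TGANTCA was in 6.49% of member windows (3.16 to 11.6), 4.11% of windows in all 4 libraries and 7.81% of all windows. The C/EBP motif TTGCNNAA was in 1.95% (0.404 to 5.59), 7.28% and 10.8%, and the NFY box CCAAT in 34.4% (27.0 to 42.5), 49.5% and 37.4%. In the 1006 windows of the weaker regions in all 4 libraries, with a lowest percentile of 30 or less, the NFY share was 40.1%, inside the members' interval, and the C/EBP share was 6.96%. In windows of regions missing only from KO IL-4 the C/EBP motif was in 7.75% and the NFY box in 34.4%, the same NFY share as in the members. The ETS motif CCGGAAGT was in 9.74%, 10.4% and 3.89%, the SP/KLF box GGGGCGGGG in 22.1%, 25.5% and 11.4%, the E-box CACGTG in 8.44%, 11.0% and 7.15%, and the YY1 motif AAGATGGC in 4.55%, 5.37% and 2.75%. The STAT6 motif, which has TTC and GAA a fixed few bases apart, was in 7.14% (3.62 to 12.4), 5.07% and 6.95%. Each of the CRE motif TGACGTCA, the PU.1 motif AGAGGAAGT and the IRF, NF-kB and NRF1 motifs was in fewer than 4 of the 154 member windows. The intervals count each window as a separate draw, although the 154 member windows came from 137 genes and some share a region, so they may be too narrow. Member regions away from promoters were not searched.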

How the data were processed

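The 4 ATAC-seq libraries (1 per group) were each represented by the peak list that the authors deposited, with a position and a score per peak. Per the submitters' processing notes, the build was mm10 and the tools included the aligner Bowtie2 (2.2.5), the peak caller MACS (1.4.2) and HOMER, without a version or parameters. The deposited score runs from 50 upward in every list, the pattern of a scaled negative logarithm of a p-value as MACS writes it, but no header states its unit, and here it served to rank, describe and filter peaks inside one list. Without stated read depth the precision of a single call is unknown, and no test between groups is possible with 1 library each.

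Regions were merged and classed with Python 3.11.15, pandas 2.3.3, NumPy 2.4.6 and SciPy 1.17.1, and drawn with Matplotlib 3.10.9. A score percentile is a peak's rank within its own list. Gene spans and promoter windows were those of RefSeq (GRCm38.p6, the coordinates of mm10). A gene end counts within 1 kb of either end of a span, and a locus is the span extended by 10 kb. Windows on chromosome 18 were not used here, and start sites and motifs leave it out. No genome sequence was used, so regions away from promoters have no sequence. Intervals of shares are 95% Clopper-Pearson and those of medians come from order statistics. Both cover counting error only. The merge code was checked on slightly shifted copies of the 17339 peaks of the WT untreated list. Losses were planted only at peaks over 500 bp from a neighbour. The merge found 300 of 300 planted KO untreated losses and 0 false ones. This checks that the code runs as meant and says nothing of false members in the real lists.

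The members and the 36 gene lists were chosen with earlier results of these data known. Of 531 list symbols, 527 were matched, and Mx2, Rigi, Trac and Tpsab1 were not. The genes named are those of the 25 highest-ranked members, list genes with a member at a gene end and up to 5 more per list, and Slc6a8, Gamt, Gatm, Arg1, Irf2, Fos, Lamp2, Cebpb, Spi1 and Stat6, with exceptions stated beside them. A few results under this rule are not reported here. Alternatives were a reciprocal overlap of 50%, a score minimum of 100, equal list lengths, a 500 bp distance, autosomes, and other limits for gene ends and loci.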

Additional observations from a re-analysis of the deposited data

How the results depend on the processing

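The number of members held within 1.5 times at 427 with a reciprocal overlap of 50% (394 of the 421 remained), 407 without a KO untreated peak within 500 bp and 415 on autosomes. With a score of 100 or more in every list it was 91, of which 5 were among the 421, because a KO untreated peak under 100 then counts as absent. Asking for 100 or more in the 3 lists and no KO untreated peak at any score, a setting chosen after seeing the data, left 5. With every list cut to 9930 peaks, which raised the lowest score to 89.57 in WT untreated and 67.78 in KO untreated, it was 528, of which 211 were among the 421. The 25 highest-ranked regions all remained there, but the ranking fixed this in advance. Each of their peaks scored above the lowest score kept in its list, and the cut could only remove KO untreated peaks. Of 76 genes checked, 31 kept no member: Nr1h3, Adgre1, Lamp2, Egr2, Irf5, Runx1, Bach1, Fcgr1, Msr1, Alg3, Ngly1, Gnptab, Cmas, Rhot1, Smad1, Ndufs4, Atp5o, Mrpl10, Mrps31, Slc30a4, Zfp493, Zfp966, Zfp473, Actb, Fbxl18, Rpl38, Eif3b, Psma6, Rab31, Rab7b and Arhgap21.

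The KO untreated share of regions in exactly 3 libraries was 5.93% at a score of 100 and 22.7% at equal lengths, against 13.0%. The share at gene ends was 51.6% at a score of 100, 80.0% among the 5 regions and 40.1% with ends of 2.5 kb, against 33.3%. The median peak width of 456 bp became 583 at a score of 100 and 486 at equal lengths, and the median WT untreated percentile of 44.7 became 47.7 and 29.8. List genes with a member numbered 119 with loci of 50 kb and 26 at gene ends, against 66. Read depth, which would set the limit on calling a weak peak, is not known. No paired analysis was possible because each group had 1 library and the labels carry no replicate numbers.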
